A study of Mus musculus with 2 samples.

Results

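The genes described here were 40 genes of DNA replication and S phase, taken by name out of the 32285 genes counted in single LSK cells. LSK cells are the marrow cells that lack mature lineage markers and carry Sca-1 and high Kit, a fraction that contains stem cells and early progenitors of the blood. They were sorted from femur and tibia of young wild-type (WT) mice and of young mice whose IκB was altered, called IkBKO in the deposited cell table. IκB proteins hold NF-κB transcription factors inactive. The labels give no IκB gene, allele, promoter, strain or number of mice, so the genotype is described no further. In each of the 2 replicates, 30000 sorted cells of either genotype were tagged with antibodies and loaded into the same droplet library. Counts were summed over the 18029 cells that passed the deposited quality call, which gave 4 pools: WT and IkBKO of replicate 1 (3721 and 3962 cells) and of replicate 2 (4963 and 5383 cells).

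Cells copy their DNA once per division, in S phase. In G1 the 6 subunits of the MCM helicase are loaded onto origins with the help of Cdc6 and Cdt1, and this step is called licensing. Helicase activation, primer synthesis, clamp loading, strand joining and chromatin assembly follow at the fork. E2F transcription factors switch on most of these genes before S phase, and E2f8 is an atypical member that represses many of them again. Stem cells of the marrow are mostly quiescent, and progenitors divide more often. The members fell into licensing and helicase (11 genes), synthesis machinery (9), nucleotide supply (3), chromatin and histones (7), fork checkpoint and repair (9), and the transcription factor E2f8.

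The pools held 43674115 (WT) and 62834572 (IkBKO) UMIs, counts of distinct RNA molecules, in replicate 1, and 42165571 and 61278938 in replicate 2. The median cell carried 9963 and 13709 UMIs in replicate 1 and 6983 and 9641 in replicate 2, so IkBKO cells were deeper in both libraries. Kit stood at 118 to 272 CPM (UMIs of a gene among 1e6 of the pool) and Ly6a, which encodes Sca-1, at 52.4 to 117 CPM, so both sorting markers were present in every pool. They were not level between the genotypes: by the test below 1 was higher and 1 lower in IkBKO cells. Together they summed to 252 (WT) and 207 (IkBKO) CPM in replicate 1 and to 362 and 311 CPM in replicate 2. The libraries shared 39 cell barcodes, 0.508% and 0.377% of their cells. Of 8 myeloid marker genes 7 were higher in IkBKO cells (summed 997 to 3378 CPM in WT and 2582 to 9136 CPM in IkBKO pools), and of 8 stem cell markers 5 were lower (445 to 869 and 180 to 496 CPM). Of 8 mature neutrophil markers 5 were lower (1163 to 1350 and 168 to 201 CPM). Of 8 lymphoid markers 4 were lower and 0 higher (694 to 858 and 304 to 509 CPM). Of 8 dendritic and monocyte markers 4 were higher and 0 lower (319 to 468 and 766 to 1255 CPM). The same counts held for 8 mast and basophil markers (113 to 146 and 170 to 174 CPM). The part of these markers in the results below was not tested.

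Promoter sequence is shown first because E2F sites are what these genes are best known to share. Promoter windows of 250 bases before to 50 after the start were found for 31 of the 40 members in the RefSeq table (GRCm38.p6). They were searched on both strands for the E2F words TTTGGCGC, TTTCCCGC, TTTCGCGC and TTTGCCGC. The last letters of 1 word can overlap the complement of another. At least 1 word lay in the windows of 13 of 31 members (41.9%), compared with 704 of 27025 genes in the table (2.605%). TTTGCCGC lay in 0 of the 31. The 13 were Mcm3, Mcm5, Mcm6, Mcm7, Cdc6, Cdt1, Pola1, Pold3, Lig1, Uhrf1, Hells, Clspn and Dtl. The stretches below are 80 bases each on the gene's strand with the E2F words in capitals, and they show 3 words at Mcm6 (chr1:128359741-128359820, minus strand), 2 overlapping words at Mcm5 (chr8:75109322-75109401, plus strand) and 1 each at Cdc6 (chr11:98907977-98908056, plus strand), Uhrf1 (chr17:56304092-56304171, plus strand) and Dtl (chr1:191575545-191575624, minus strand, ending at the base before the start).
Mcm6: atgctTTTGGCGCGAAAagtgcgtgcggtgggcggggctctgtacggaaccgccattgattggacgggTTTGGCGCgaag
Mcm5: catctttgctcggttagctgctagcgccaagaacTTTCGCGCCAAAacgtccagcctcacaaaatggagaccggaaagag
Cdc6: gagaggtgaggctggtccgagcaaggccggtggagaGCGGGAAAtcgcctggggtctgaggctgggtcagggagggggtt
Uhrf1: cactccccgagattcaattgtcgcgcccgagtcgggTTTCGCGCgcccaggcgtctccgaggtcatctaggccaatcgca
Dtl: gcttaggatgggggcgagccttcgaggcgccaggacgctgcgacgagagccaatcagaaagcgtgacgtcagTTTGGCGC

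E2f8, Rrm2, Tyms and Cdc45, the members with the largest fold changes over all LSK cells, held none of the 4 E2F words in these windows. The words CCAAT and TTTGAA or TTCGAA, which occur at promoters of many late cell cycle genes, were searched as well. CCAAT lay in 21 of 31 members (67.7%) and in 41.1% of all genes of the table, and TTTGAA or TTCGAA in 7 of 31 (22.6%) and in 21.7%. These words stand in capitals in the 120 bases before the start of E2f8 (chr7:48881597-48881716, minus strand), Rrm2 (chr12:24708134-24708253, plus strand) and Cdc45 (chr16:18811973-18812092, minus strand), where ATTGG is CCAAT and TTCAAA is TTTGAA on the other strand.
E2f8: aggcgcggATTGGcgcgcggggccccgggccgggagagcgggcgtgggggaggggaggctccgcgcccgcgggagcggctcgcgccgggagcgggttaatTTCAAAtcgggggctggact
Rrm2: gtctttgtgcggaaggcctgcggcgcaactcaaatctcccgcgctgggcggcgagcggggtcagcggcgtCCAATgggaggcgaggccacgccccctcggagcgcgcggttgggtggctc
Cdc45: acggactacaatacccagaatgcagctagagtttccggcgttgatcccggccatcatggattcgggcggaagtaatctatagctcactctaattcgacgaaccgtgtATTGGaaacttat
Of 12 members with a window that were higher in IkBKO cells by the test below, 3 held an E2F word (Cdc6, Cdt1 and Clspn). Of 19 that were not called, 10 did. The Tyms window also held no CCAAT and neither TTTGAA nor TTCGAA. A match describes these letters only.

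Of the 40 replication genes 15 were called higher in IkBKO than in WT LSK cells and the other 25 were not called. Genes were tested with edgeR's quasi-likelihood test (two-sided, replicate as a block, Benjamini-Hochberg adjustment over all genes tested) and called at an adjusted p of at most 0.05. All 40 members were among the 14742 genes tested over all LSK cells. Of them 15 were called higher and 0 lower, while 7.13% of all genes tested were called higher and 6.19% lower. No member was lower at an unadjusted p under 0.05 either (25 were higher, 0 lower), and DESeq2 called 12 higher and 0 lower. The median log2 fold change was 0.24 over the members and -0.0064 over all genes tested. Within both libraries 35 members were higher in IkBKO cells (37.1% of all genes were), and for 18 both IkBKO pools stood above both WT pools (20.2%). The block takes out the level of each replicate. The p-values therefore measure how alike the genotype difference was in both replicates, with each gene's spread drawn toward that of other genes. They do not measure the spread between mice, since nothing states how many mice each of these 4 pools holds. Without the block 0 members were called. A pooled level cannot tell more positive cells from more RNA in each.

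**Figure D1:**
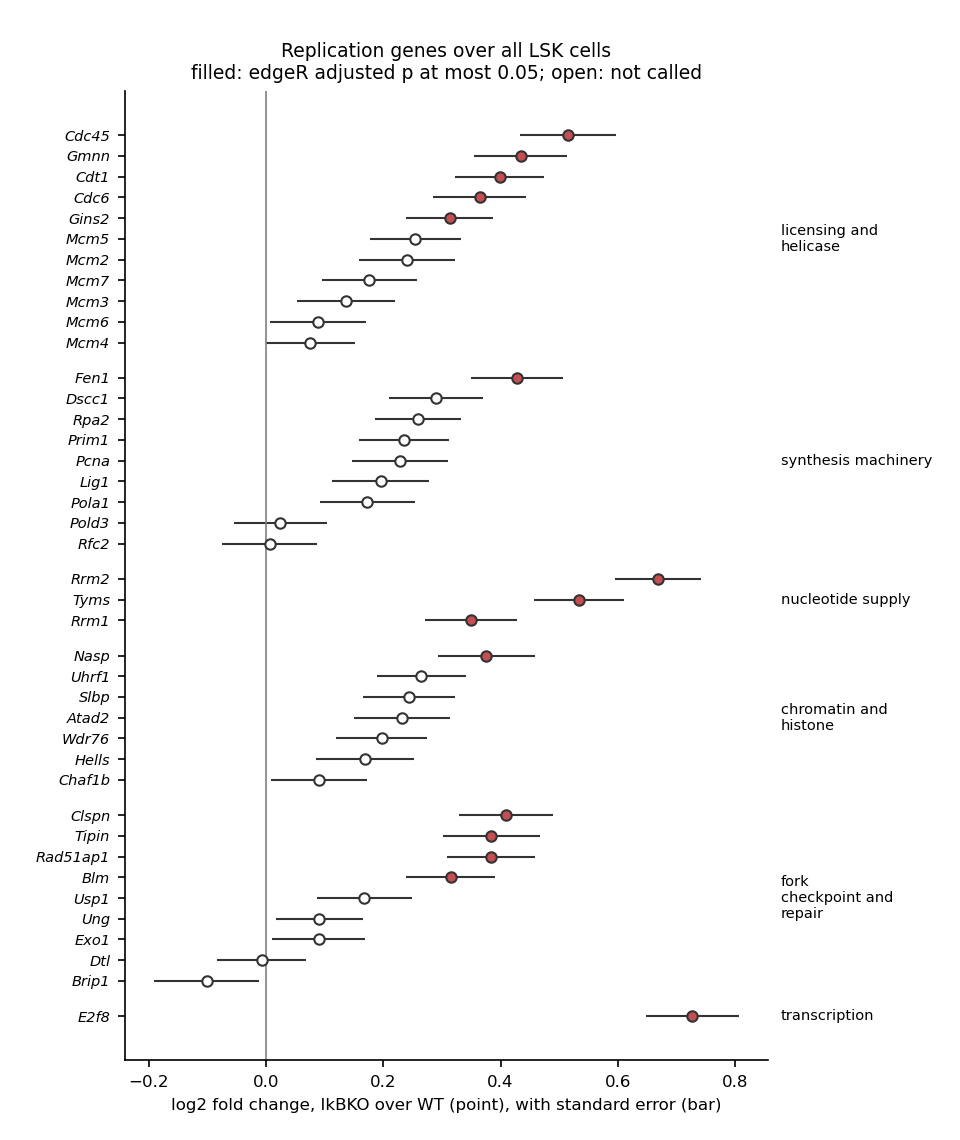
Log2 fold change of each of the 40 members, IkBKO over WT, over all LSK cells (x axis), with its standard error as a bar, grouped by role. Filled points are the 15 members called higher by edgeR and open points the 25 not called; E2f8 (0.73) and Rrm2 (0.67) lie farthest to the right.

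E2f8 and 2 of the nucleotide supply genes, Rrm2 and Tyms, had the largest log2 fold changes of the 40 members. E2f8, on chromosome 7 from 48866429 to 48881596, stood at 22.8 (WT) and 36.7 (IkBKO) CPM after TMM scaling in replicate 1, and at 21.8 and 37.1 in replicate 2. Its log2 fold change was 0.73 ± 0.08 (SE; edgeR adjusted p = 0.0068), and both IkBKO pools stood above both WT pools. Rrm2, the small subunit of ribonucleotide reductase, which makes deoxynucleotides, is on chromosome 12 from 24708241 to 24714146. It stood at 43.2 and 68.8 TMM-scaled CPM in replicate 1 and 28.9 and 45.9 in replicate 2, and the pools again did not overlap (log2 fold change 0.67 ± 0.07, edgeR adjusted p = 0.0071). Tyms, thymidylate synthase, stood at 84.5 and 121 in replicate 1 and 70.6 and 104 in replicate 2 (0.53 ± 0.08, edgeR adjusted p = 0.014). Rrm1, the large subunit of the reductase, rose by less: 104 and 131 TMM-scaled CPM in replicate 1 and 91.8 and 118 in replicate 2 gave 0.35 ± 0.08 (edgeR adjusted p = 0.040).

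Among the licensing and helicase genes, the loaders and the helicase activators rose and the MCM subunits were not called. Called higher were Cdc45 (0.51 ± 0.08), Gmnn (0.43 ± 0.08), Cdt1 (0.40 ± 0.08), Cdc6 (0.36 ± 0.08) and Gins2 (0.31 ± 0.07). Cdc45 and the GINS complex, of which Gins2 is a part, turn the loaded MCM ring into the active helicase, and Gmnn encodes geminin, the inhibitor of Cdt1. Gmnn stood at 99.6 (WT) and 139 (IkBKO) TMM-scaled CPM in replicate 1 and at 92.2 and 121 in replicate 2. Both IkBKO pools were above both WT pools. For Cdc45 (23.2, 34.7, 16.9 and 23.1 in the same order) the groups overlapped, because replicate 2 was lower in both genotypes.

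Of the 6 MCM subunits 0 were called by edgeR, and their log2 fold changes ran from 0.08 (Mcm4) to 0.25 (Mcm5). Mcm2 and Mcm5 were higher at an unadjusted p under 0.05 (0.026 and 0.017 in edgeR). Mcm6 stood at 236 and 247 TMM-scaled CPM in replicate 1 and at 177 and 191 in replicate 2, and Mcm3 at 191 and 204, and 145 and 164. Mcm7 stood at 188 and 214 in replicate 1 and at 139 and 155 in replicate 2. The replicates thus lay farther apart than the genotypes for these subunits. The 95% intervals of the log2 fold change, from the SE and edgeR's degrees of freedom, reached from -0.11 to 0.29 for Mcm6 and from -0.067 to 0.34 for Mcm3. Differences between members were not tested.

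Of the 9 synthesis genes 1 was called higher, Fen1, the flap endonuclease that trims Okazaki fragments (0.43 ± 0.08). Pcna, the sliding clamp, stood at 240 (WT) and 284 (IkBKO) TMM-scaled CPM in replicate 1 and at 203 and 235 in replicate 2 (0.23 ± 0.08, edgeR adjusted p = 0.12). Lig1, the ligase that seals fragments, had 115 and 126, and 101 and 121, and Rpa2, a subunit of the single-strand binding protein, had 77.3 and 92.4, and 60.8 and 72.8. The pools of Lig1 did not overlap and those of Rpa2 did, and neither gene was called. Rfc2, a subunit of the clamp loader, had nearly the same level in all 4 pools: 183 and 185 in replicate 1 and 173 and 172 in replicate 2 (0.0062 ± 0.08, 95% interval -0.19 to 0.20). The remaining synthesis genes were not called and ranged from 0.02 (Pold3, a subunit of polymerase delta) to 0.29 (Dscc1, part of an alternative clamp loader), with Pola1 and Prim1 of the primase complex at 0.17 and 0.24.

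Of the 7 chromatin and histone genes 1 was called higher, the histone chaperone Nasp, at 161 and 216 TMM-scaled CPM in replicate 1 and 113 and 141 in replicate 2 (0.38 ± 0.08). Hells, a chromatin remodeller, stood at 143 and 153, and 88.0 and 104. Atad2, a bromodomain ATPase, stood at 114 and 128, and 110 and 135, and Slbp, which binds the stem-loop of histone mRNAs, at 115 and 134, and 107 and 129. Both IkBKO pools stood above both WT pools for Atad2 and Slbp, and neither was called (edgeR adjusted p = 0.11 and 0.092). Uhrf1, which guides maintenance DNA methylation, had 0.26, Wdr76 0.20 and the CAF-1 subunit Chaf1b 0.09, none of them called.

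Of the 9 fork checkpoint and repair genes 4 were called higher. These were the checkpoint adaptor Clspn (0.41 ± 0.08), the fork protection gene Tipin (0.38 ± 0.08), the repair gene Rad51ap1 (0.38 ± 0.08) and the helicase Blm (0.31 ± 0.08). Tipin stood at 125 and 169 TMM-scaled CPM in replicate 1 and 101 and 126 in replicate 2, and Clspn at 49.1 and 61.5, and 43.3 and 61.03. Both genes had no overlap between the genotypes. Usp1, which removes ubiquitin from the clamp, stood at 107 and 126, and 109 and 117, and was not called. Dtl, the substrate receptor of the ubiquitin ligase that destroys Cdt1 in S phase, stood at 82.0 and 78.9, and 63.1 and 64.9 (-0.0073 ± 0.08, 95% interval -0.19 to 0.18). Brip1, a helicase that partners BRCA1, had -0.10 ± 0.09 and was the only member lower in both replicates. Exo1, an exonuclease, and Ung, which removes uracil from DNA, were at 0.09 each and not called.

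**Figure D2:**
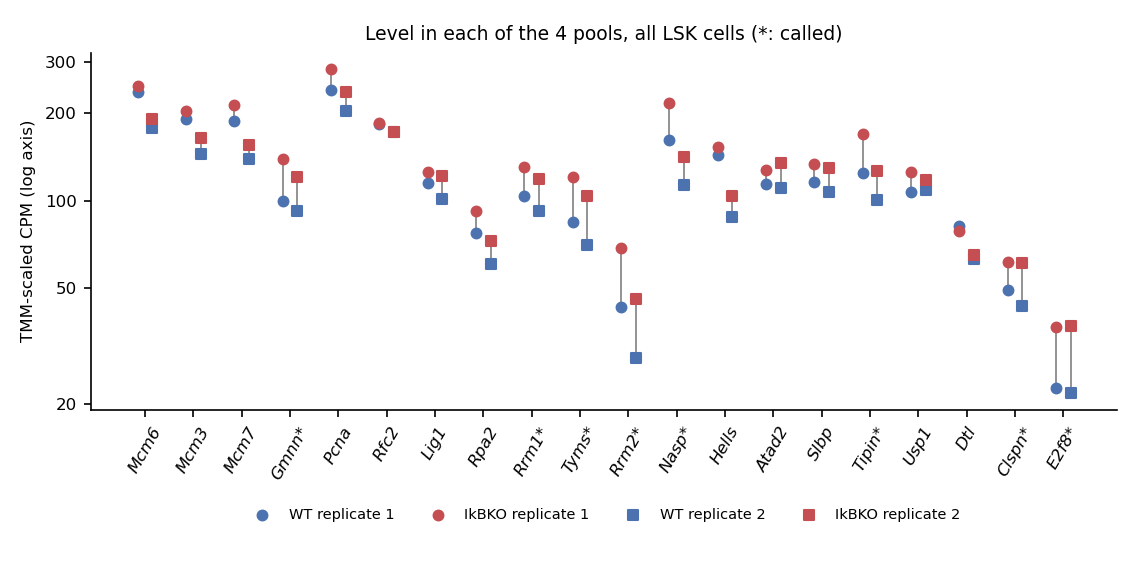
TMM-scaled CPM (log axis) of the members with the highest mean level in each role, in the 4 pools; circles are replicate 1, squares replicate 2, and a line joins WT and IkBKO of a replicate. An asterisk marks called members: E2f8 goes from 22.8 to 36.7 and from 21.8 to 37.1, while Rfc2 stays between 172 and 185.

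The gates below, set on single lineage genes, make up different shares of the genotypes. Cells with at least 20 UMIs of Mpo were 9.11% of WT and 37.2% of IkBKO cells in replicate 1 and 0.806% and 9.47% in replicate 2. When WT and IkBKO cells of a replicate were drawn in equal numbers from every combination of gates (2486 cells per pool in replicate 1 and 4273 in replicate 2), 4 members were called higher by edgeR: E2f8, Gmnn, Tipin and Tyms. The median of the members was then 0.11, and Rrm2 stood at 0.27 (edgeR adjusted p = 0.26). Without cells holding at least 20 UMIs over the 8 mature neutrophil markers the count was 15. No member was called in any fit that left out 1 of the 4 pools, where the replicates cannot be blocked and the lone pool of a group is assumed to vary like the others, and with total UMIs in place of TMM scaling 12 were called (median 0.15). That scaling set the median of all genes at -0.14 in replicate 1 and -0.056 in replicate 2, and lowered the share of higher among all called genes from 53.5% to 36.6%.

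The genes that work with the members were described with 8 lists holding 141 further genes, none of them a member. Over all LSK cells, edgeR called 3 of 17 origin genes higher (such as Mcm10, which helps activate the helicase, 0.49, and the GINS subunit Gins1, 0.52) and 0 lower, with a list median of 0.25. Of 20 polymerase and clamp genes 6 were higher and 0 lower (the nuclease Dna2, 0.60, and the RNase H2 subunit Rnaseh2a, 0.36; median 0.27). Of 18 nucleotide supply genes 4 were higher and 1 lower (thymidine kinase Tk1, 0.86, and nucleoside diphosphate kinase Nme1, 0.47; median 0.20). Of 10 chromatin assembly genes 4 were higher and 0 lower (the histone chaperones Npm1, 0.37, and Asf1b, 0.50; median 0.27).

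Of 20 checkpoint and repair genes 3 were higher and 0 lower (Rad54l, 0.41, and Timeless, the partner of Tipin, 0.36; median 0.18). Of 15 E2F and pocket protein genes 3 were higher and 0 lower, among them Mybl2 (0.55) and E2f1 (0.34), with a median of 0.15. Of 16 G1/S regulators 2 were higher, cyclins Ccne1 (0.99) and Ccna2 (0.59), and 1 was lower (median 0.16). Mitosis genes stood apart in number: 19 of 25 were higher and 0 lower, such as cyclin Ccnb1 (0.80) and the centromeric histone Cenpa (0.72), with a median of 0.44. The counts of all 8 lists read against the same 7.13% and 6.19% of genes.

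To set the members beside the mitosis list in single cells, each cell was thinned to 4000 UMIs, which left out 80 WT and 41 IkBKO cells of replicate 1 and 359 and 211 of replicate 2. At least 10 UMIs over the 40 members were then found in 51.3% of WT cells (exact 95% binomial interval 49.7 to 53.0) and 60.7% of IkBKO cells (59.1 to 62.2) of replicate 1. In replicate 2 the shares were 39.6% (38.2 to 41.0) and 49.0% (47.6 to 50.3). Without thinning they were 71.4% and 80.5%, and 52.8% and 66.3%. These intervals cover counting error only, and the shares were not tested between the genotypes.

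Over all LSK cells the share was higher in the IkBKO pool of both libraries. This share mixes gates: in Mpo cells, which were a larger part of the IkBKO pools, it was 84.1% (WT) and 80.7% (IkBKO) in replicate 1 and 87.5% and 72.5% in replicate 2. In cells of no gate it was 46.8% and 45.9%, and 35.8% and 40.4%. Among the gates defined below, it was higher in IkBKO cells of both replicates for Mecom, Flt3 and Dntt. The Mecom shares were 48.2% and 55.95%, and 38.5% and 45.9%. Those of Flt3 were 52.7% and 63.6%, and 39.4% and 47.9%. Those of Dntt were 49.3% and 61.2%, and 47.04% and 64.1%. In Pf4 cells the share was lower in IkBKO cells of replicate 1 and higher in replicate 2. In Car1 cells it was lower in both. Of all LSK cells, those at or past 10 UMIs held on average 19.1 (WT) and 18.7 (IkBKO) member UMIs in replicate 1. In replicate 2 they held 19.8 and 20.03. Cells below 10 UMIs held 4.40 and 4.73, and 4.09 and 4.17. The same count chose these cells, so these means do not tell a change in share from a change in level. The value of 10 is a point on a continuous range, as 11.4% to 14.6% of the cells of a pool lay at 8 to 11 UMIs. RNA from broken cells in the droplets adds to such counts, and its part was not tested. Cells with at least 10 UMIs of both the members and the mitosis list were 8.13% of WT and 13.4% of IkBKO cells in replicate 1 and 10.0% and 16.3% in replicate 2, and cells with neither were 43.0% and 31.0%, and 54.8% and 41.5%.

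**Figure D3:**
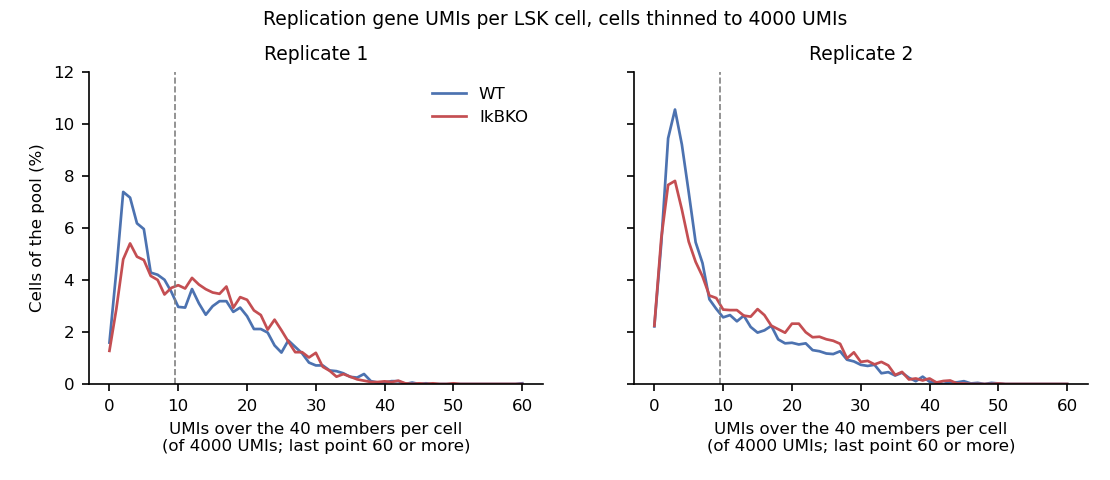
Share of the cells of a pool (y axis, percent) by the number of UMIs over the 40 members in a cell thinned to 4000 UMIs (x axis), by genotype and replicate; the dashed line marks the step to 10 UMIs. The WT curves are higher from 2 to 7 UMIs and the IkBKO curves mostly higher from 10 to 30 UMIs, with 51.3% of WT and 60.7% of IkBKO cells at or past the line in replicate 1.

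The members differed in which of these cells held them. In WT cells of replicate 1 the mean Rrm2 count was 0.456 UMIs in the 296 cells past 10 UMIs of both lists and 0.172 in the 1573 cells past it for the members alone, a ratio of 2.65 (3.05 in replicate 2). E2f8 had ratios of 2.91 and 4.13, Clspn 2.18 and 2.39, Tyms 2.16 and 2.20 and Rrm1 2.04 and 2.17. The opposite held for Ung (0.282 and 0.148), Mcm2 (0.623 and 0.583) and Mcm4 (0.632 and 0.590). Their means were lower in cells that also held at least 10 mitosis UMIs than in cells with fewer. Across the 40 members the log2 of this ratio and the log2 fold change of IkBKO over WT had Pearson's r = 0.49 and Spearman's rho = 0.48 in replicate 1 and 0.53 and 0.49 in replicate 2. Members are not independent, the WT cells enter both axes, and each gene's own UMIs help place a cell, so this is a description. Brip1 had ratios of 2.94 and 2.55 and did not follow it.

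Cells were next divided by genes that are not members: at least 1 UMI of Mecom (a stem cell gene), at least 1 of Flt3 with 0 of Dntt (early progenitors), at least 3 of Dntt (lymphoid), at least 20 of Mpo (myeloid), at least 3 of Pf4 (megakaryocyte) and at least 5 of Car1 (erythroid). A cell can meet several gates, and 49.2% of Mecom cells and 45.2% of Mpo cells did. In the Mecom gate (738 to 1761 cells per pool) edgeR called 13 members higher and 0 lower, and 6.2% of genes were called higher and 4.37% lower. Cdc45 (0.56 ± 0.11), E2f8 (0.55 ± 0.10) and Tyms (0.53 ± 0.07) had the largest rises and Fen1 (0.32), Rrm1 (0.31) and Nasp (0.27) the smallest among those called. Tyms stood at 83.5 (WT) and 123 (IkBKO) TMM-scaled CPM in replicate 1 and at 71.4 and 102 in replicate 2, without overlap. In Mecom cells that met no other gate 0 were called by edgeR (7 at an unadjusted p under 0.05; median 0.12), DESeq2 called 2 in the whole gate, and cells thinned to 4000 UMIs gave 6. In the whole gate 4 of 8 myeloid markers were higher (summed 596 to 1558 CPM in WT and 1663 to 3619 CPM in IkBKO pools). Of 8 megakaryocyte markers 5 were higher and 2 lower (412 to 414 and 523 to 582 CPM), and 5 of 7 lymphoid markers tested were lower (469 to 531 and 200 to 234 CPM). Stem cell markers, Mecom among them, summed to 787 to 1203 CPM in WT and 518 to 843 CPM in IkBKO pools (1 of 8 higher, 3 lower). Higher too were 3 of 7 erythroid, 4 of 7 mast and basophil and 2 of 6 dendritic and monocyte markers tested, with 0 lower. Their part in the result was not tested.

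In the Flt3 gate (1000 to 1537 cells per pool) 16 members were called higher and 0 lower by edgeR, while 10.9% of genes were called higher and 8.98% lower. E2f8 (0.74 ± 0.11), Rrm2 (0.74 ± 0.10) and Cdc45 (0.64 ± 0.12) led, and Rrm1 (0.37), Uhrf1 (0.33) and Prim1 (0.31) were the smallest of those called. Rrm2 stood at 42.8 and 70.2 TMM-scaled CPM in replicate 1 and at 26.0 and 44.4 in replicate 2. DESeq2 called 9. With total UMIs as the scale 11 were called, and the share of higher among all called genes was 36.5% in place of 54.8%. Among Flt3 cells of no other gate 11 were higher and 1, Rfc2, was lower, and the median of the members was 0.085 in place of 0.25. Other markers moved with genotype in this gate: 4 of 8 myeloid markers were higher (summed 877 to 3174 CPM in WT and 3123 to 7796 CPM in IkBKO pools), as were 5 of 8 dendritic and monocyte markers (319 to 510 and 1251 to 1315 CPM). Of 8 stem cell markers 6 were lower (561 to 1051 and 177 to 490 CPM). Their part in the result was not tested.

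The Dntt gate had the most members called higher, 22 with 0 lower, where 6.81% of genes were called higher and 5.95% lower. It held 748 WT and 264 IkBKO cells in replicate 1 and 962 and 527 in replicate 2. Rrm2 (0.72 ± 0.11) stood at 35.9 and 53.9 TMM-scaled CPM, and 38.9 and 68.7. E2f8 (0.61 ± 0.15) stood at 13.0 and 24.3, and 22.7 and 30.6, and Tyms (0.56 ± 0.09) at 71.6 and 107, and 82.7 and 120. All 3 had both IkBKO pools above both WT pools, and the smallest rises called were Ung (0.31), Rrm1 (0.31) and Rpa2 (0.28). Of the chromatin and histone genes 6 of 7 were called here, all but Chaf1b, and Mcm5 (0.33) was called as the only MCM subunit in any gate. DESeq2 called 0 members in this gate (11 at an unadjusted p under 0.05), and edgeR called 10 in Dntt cells of no other gate and 7 with total UMIs as the scale, which moved the share of higher among all called genes from 53.4% to 35.9%. Of 7 B cell markers tested 5 were higher in IkBKO Dntt cells (summed 114 to 167 CPM in WT and 273 to 341 CPM in IkBKO pools). Stem cell markers went the other way, with 5 of 6 tested lower and 0 higher (261 to 424 and 131 to 173 CPM). Myeloid markers had 2 of 8 higher and 0 lower (642 to 953 and 1432 to 1467 CPM). The part of these markers was not tested.

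In the Mpo and Pf4 gates edgeR called 0 members. The Mpo gate held 339 and 1473 cells in replicate 1 and 40 and 510 in replicate 2, and 0.164% of its genes were called higher and 0.138% lower. At an unadjusted p under 0.05, 0 members were higher and 1 lower, Brip1 (-0.65 ± 0.19, edgeR adjusted p = 0.55), and DESeq2 called 0. The median of the members was -0.079 and 13 of 40 were positive. Rrm2 was at -0.26, Tyms at -0.08 and E2f8 at -0.06. The summed mature neutrophil markers were 818 (WT) and 261 (IkBKO) CPM in replicate 1 and 9009 and 531 CPM in replicate 2 in this gate, and without neutrophil marker cells the count was again 0.

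The Pf4 gate (113 to 586 cells per pool) had 34 of 40 members positive with a median of 0.15, and 0.73% of its genes were called in each direction. At an unadjusted p under 0.05, 7 members were higher and 0 lower. Mcm2 came closest at 0.48 ± 0.13 (edgeR adjusted p = 0.063), with 93.6 and 111 TMM-scaled CPM in replicate 1 and 52.1 and 85.5 in replicate 2. DESeq2 called 0.

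Across the 5 tested gates, 11 members were called higher in each of the Mecom, Flt3 and Dntt gates: Cdt1, Gmnn, Fen1, Rrm1, Rrm2, Tyms, Nasp, Clspn, Tipin, Rad51ap1 and E2f8. Cdc6, Cdc45 and Uhrf1 were called in 2 gates, 12 members in 1 gate and 14 in none. The gates share cells, so these counts are not independent. Members higher in both replicates numbered 36 in the Mecom gate (33.8% of all genes were), 35 in the Flt3 gate (36.2%), 36 in the Dntt gate (33.3%), 2 in the Mpo gate (25.4%) and 23 in the Pf4 gate (28.1%). Both IkBKO pools stood above both WT pools for 19 (18.9%), 20 (21.3%), 26 (22%), 1 (13.8%) and 11 (14.8%) members in the same order. A call in one gate and not in another is no test of a difference. That test was made in cells meeting exactly 1 gate (24 pools of 4 origins and 6 gates), as the interaction of genotype and gate against the Mecom gate. EdgeR called 0 members for the Flt3, Dntt, Mpo, Pf4 and Car1 gates, where 1.03%, 0.129%, 0.0323%, 0% and 0.0162% of genes were called. At an unadjusted p under 0.05 there was 1 member each for Flt3, Dntt, Mpo and Pf4 and 5 for Car1 (1 higher and 4 lower). For the Mpo gate it was Rad51ap1 (-0.52 ± 0.21). In cells of exactly 1 gate the WT pool of replicate 2 held 5 Car1 cells. Without that pool 0 members were again called for Car1 (0 higher and 3 lower at an unadjusted p under 0.05 in edgeR), with 1 WT pool left in that gate.

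**Figure D4:**
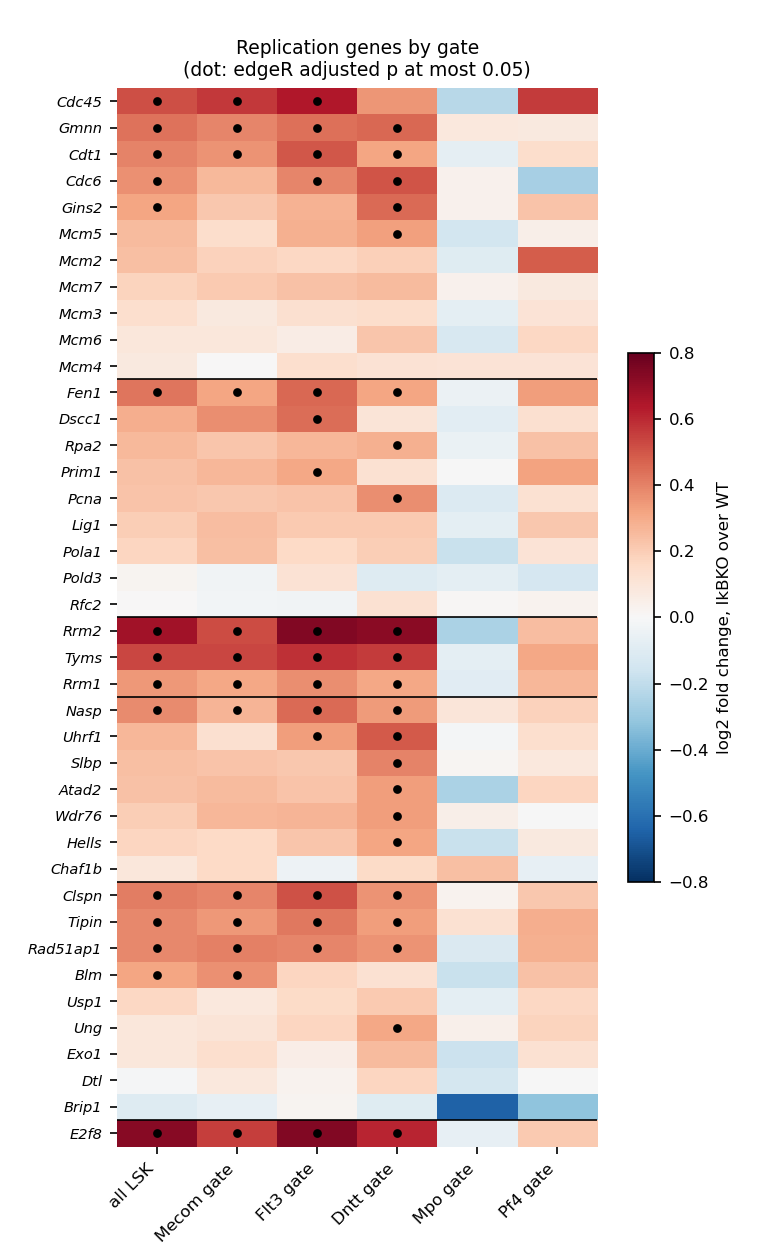
Log2 fold change of the 40 members, IkBKO over WT (colour), over all LSK cells and in the 5 gates with a test; black dots mark members called by edgeR and lines part the role groups. Dots mark 15 members over all LSK cells, 13 in the Mecom, 16 in the Flt3 and 22 in the Dntt gate and 0 in the Mpo and Pf4 gates.

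The Car1 gate held 52 WT and 253 IkBKO cells in replicate 1 and 9 and 224 in replicate 2, so the genotype difference within it is given as values with no test of its own. Summed over the 40 members, the level was 4205 (WT) and 2635 (IkBKO) CPM in replicate 1 and 5183 and 4055 CPM in replicate 2. This was the reverse of the Mecom gate, at 3468 and 3849 CPM, and 3007 and 3427 CPM. Rrm2 stood at 145 and 32.2 TMM-scaled CPM in replicate 1 of the Car1 gate and at 129 and 75.2 in replicate 2, and Pcna at 335 and 187, and 446 and 263. Cells thinned to 4000 UMIs with at least 10 of the members were 56.9% of WT (exact 95% binomial interval 42.2 to 70.7) and 34.0% of IkBKO cells (28.2 to 40.2) in replicate 1. In replicate 2 all 8 WT cells deep enough (63.1% to 100%) and 72.2% of IkBKO cells (65.8 to 78.0) were past it. The 8 erythroid markers summed to 3885 (WT) and 3090 (IkBKO) CPM in replicate 1 of this gate and to 3970 and 2865 CPM in replicate 2. Hba-a1, a globin and 1 of the 8, stood at 589 and 3.62 CPM in replicate 1 and 614 and 30.8 CPM in replicate 2, so the sum carries its difference. The WT values rest on 52 and 9 cells, and the other erythroid markers are not given singly. The part of these markers was not tested.

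**Figure D5:**
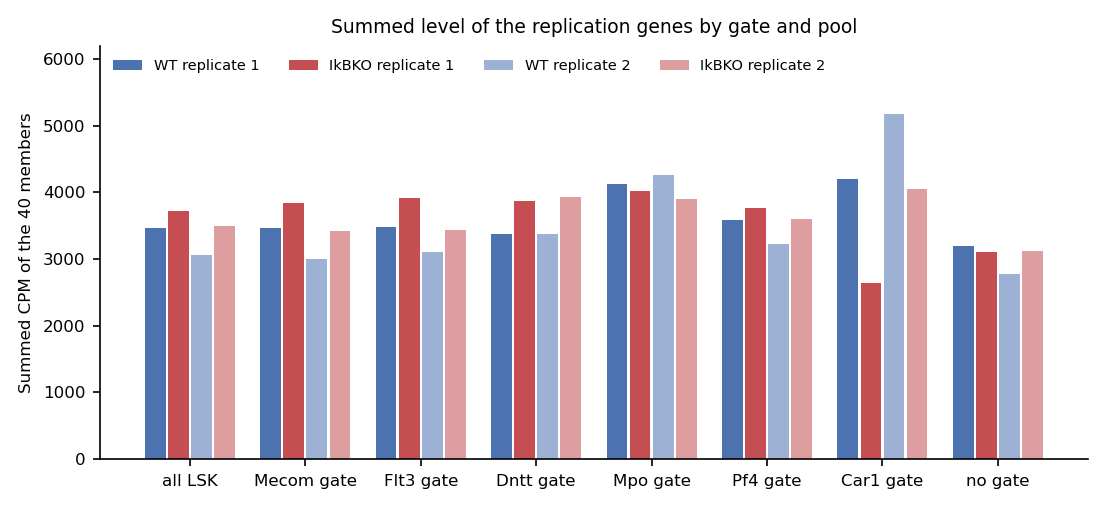
Summed CPM of the 40 members (y axis) in all LSK cells, in each of the 6 gates and in cells of no gate, one bar per pool. IkBKO bars are above WT bars of the same replicate in all LSK cells and in the Mecom, Flt3, Dntt and Pf4 gates, and below them in the Mpo and Car1 gates (2635 against 4205 CPM in Car1 cells of replicate 1). In cells of no gate the IkBKO bar is lower in replicate 1 and higher in replicate 2.

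The gates were also compared with each other, over both genotypes together. Against Mecom cells, in cells meeting exactly 1 gate with the pool of origin as a block, edgeR called 36 members higher and 0 lower in Mpo cells (29.8% of genes were called higher and 31.4% lower). Mcm4, Pola1, Chaf1b and Dtl were not called. Cdc45, at 14.1 to 19.8 TMM-scaled CPM in Mecom pools and 43.6 to 58.2 in Mpo pools, rose by 1.498 ± 0.13 on the log2 scale. Mcm5 rose by 1.00 ± 0.12, Tyms by 0.94 ± 0.12 and Cdt1 by 0.90 ± 0.12. These members were named for the smallest p and not for the largest rise. The largest rise was that of Rrm2 (1.89), from 20.7 to 31.0 TMM-scaled CPM in Mecom pools to 77.6 to 112 in Mpo pools. Depth differed as well: over the whole gates the median Mpo cell carried 19454.5 to 22883 UMIs and the median Mecom cell 7286 to 11085.5. After thinning to 4000 UMIs, 35 members were called higher. The gates stayed those set on unthinned counts, here and for the thinned cells of the other gates below. Thinning therefore evened the counts but not the choice of cells, and it cannot remove a depth difference made by the gates.

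In Dntt cells 22 members were higher and 0 lower than in Mecom cells (15.3% of genes higher, 15% lower), such as Gins2 (0.56 ± 0.11), Mcm6 (0.52 ± 0.11), Tipin (0.51 ± 0.11) and Mcm7 (0.45 ± 0.09). Without replicate 2 the count was 2 (Gins2 and Mcm6). In Pf4 cells 13 were higher and 0 lower (12.9% and 15.5% of genes), with 3 without replicate 2 and 23 in thinned cells. E2f8 (1.14 ± 0.18), Blm (0.87 ± 0.14), Rfc2 (0.46 ± 0.09) and Prim1 (0.43 ± 0.11) were named for the smallest p. Other members rose by more than Rfc2 and Prim1, up to 0.53 among the synthesis genes. In Car1 cells 22 were higher and 2 lower (24.5% and 29.8% of genes), and 21 and 2 without the WT pool of 5 cells. The pools differed here: Pcna stood at 218 and 225 TMM-scaled CPM (WT and IkBKO) in Mecom cells of replicate 1 and at 325 and 196 in Car1 cells. In that replicate it was thus higher in Car1 than in Mecom cells in the WT pool and lower in the IkBKO pool. Replicate 2 did not repeat this: Pcna stood at 186 and 193 in Mecom cells and at 304 and 299 in Car1 cells, higher in Car1 cells of both genotypes. E2f8 (1.55 ± 0.18), Blm (1.43 ± 0.14), Fen1 (1.16 ± 0.16) and Cdc6 (1.07 ± 0.18) were higher, and Hells (-0.72) and Brip1 (-0.69) were lower. The 3 nucleotide supply genes were also called higher, by 0.50 to 1.51. Hells stood at 80.2 to 133 TMM-scaled CPM in the Mecom pools and 36.4 to 88.7 in the Car1 pools. Without replicate 2 the Car1 counts were 3 and 3, without replicate 1 28 and 0, and in thinned cells 7 and 1.

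Flt3 cells did not differ detectably from Mecom cells in any member: edgeR called 0 in either direction, 0 passed an unadjusted p under 0.05, and 5.23% of genes were called higher and 3.25% lower. The member with the smallest p was E2f8 (0.32 ± 0.16, edgeR adjusted p = 0.28). Size factors of the RLE type moved the median of all genes from -0.043 to -0.20 for Mpo cells and from -0.081 to -0.23 for Car1 cells. They gave 28 members higher and 1 lower in Mpo cells and 13 and 5 in Car1 cells. With them the share of higher among all called genes fell from 48.7% to 36.1% for Mpo cells and from 45.1% to 33.4% for Car1 cells.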

How the data were processed

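Per the file headers the deposited matrices hold raw UMI counts, and name Cell Ranger 6.0.0. Per the submitters' processing notes Cell Ranger 7.0, Seurat 4.3.0 and mm10 were used, without saying for which values. The quality call and genotype of each barcode came from the authors' deposited cell table, whose rules are not given either; 7683 of 9322 barcodes passed in replicate 1 (82.4%) and 10346 of 24787 in replicate 2 (41.7%). No further cell filter was applied, no doublet caller was run, and no deposited cell type was used.

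Raw counts were summed per replicate and genotype and tested with edgeR 4.0.16 in R 4.3.3 (glmQLFit, robust, TMM, filterByExpr, 1 residual degree of freedom with the block). Replicate was the block because the labels say that the conditions of a replicate were multiplexed. Deviations of same-numbered pools from the genotype means correlated at 0.56 over 14742 genes in all LSK cells. Within the gates they correlated at 0.53 (Mecom), 0.56 (Flt3), 0.38 (Dntt), 0.19 (Mpo) and 0.55 (Pf4). A gate with fewer than 20 cells in a pool got no genotype test of its own; the fits over 24 pools (cells of exactly 1 gate) kept every pool, the smallest with 5 cells. TMM-scaled CPM are counts among 1e6 effective UMIs, and summed CPM use the total UMIs. DESeq2 1.42.0 was an alternative. The fits were tested on simulated counts. Members, lists and tests were chosen with earlier results of these data known. Pool levels are given for up to 4 members per role with the highest mean CPM, the 3 largest and 3 smallest called changes per gate, the 4 smallest p per gate over Mecom and up to 2 called genes per list; members given beyond these were chosen after their values were seen. Coordinates are from GENCODE of build GRCm38 (mm10), promoters from RefSeq (GRCm38.p6).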

Additional observations from a re-analysis of the deposited data

Results flagged for a closer look

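The summed level of the 40 members moved in opposite directions in different gates, in both replicates. As the ratio of IkBKO over WT summed CPM, it was 1.11 and 1.14 in the Mecom gate (replicates 1 and 2), 1.12 and 1.11 in the Flt3 gate, 1.15 and 1.16 in the Dntt gate and 1.05 and 1.12 in the Pf4 gate. It was 0.976 and 0.917 in the Mpo gate and 0.627 and 0.782 in the Car1 gate. The difference between gates was not tested for the sum. The gene by gene test of genotype and gate called 0 members by edgeR, with 1 to 5 per gate at an unadjusted p under 0.05. The WT pools of replicate 2 held 40 Mpo and 9 Car1 cells.

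Barcodes that failed the deposited quality call, which carry no genotype and enter no comparison, also held these RNAs. Their summed member level was 3147 CPM in replicate 1 and 3681 CPM in replicate 2, among 1639 barcodes with a median of 8511 UMIs and 14441 with a median of 1969. In the passing pools it was 3466 and 3718 CPM, and 3056 and 3491 CPM.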

How the results depend on the processing

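The 4 pools are the main limit. Without the replicate block, which rests on the shared library, 0 members were called higher over all LSK cells and in the Mecom, Flt3 and Dntt gates alike. Leaving out any 1 pool, where no block can be fitted, also gave 0 to 0 called for these 4 results. In that case the log2 fold change spanned 0 for Mcm2 (-0.053 to 0.59), Mcm3 (-0.053 to 0.36), Mcm5 (-0.13 to 0.67), Mcm6 (-0.11 to 0.32), Mcm7 (-0.069 to 0.43), Pold3 (-0.014 to 0.068), Rfc2 (-0.043 to 0.062), Hells (-0.15 to 0.56), Chaf1b (-0.12 to 0.30), Exo1 (-0.070 to 0.24), Dtl (-0.19 to 0.20) and Ung (-0.25 to 0.42); the cause was not tested.

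Members called higher were 4 with gate combinations matched over all LSK cells. DESeq2 with the block gave 2 in the Mecom, 9 in the Flt3 and 0 in the Dntt gate. Cells of 1 gate only gave 0 (Mecom) and 10 (Dntt), and 1 lower in the Flt3 gate. RLE factors gave 21 and no filter on low counts 22 in the Mecom gate; thinned cells and the gate on thinned counts gave 6 each there. Total UMIs as the only scale, chosen after seeing the data, gave 7 in the Dntt and 1 in the Pf4 gate, and no filter gave 1 in the Pf4 gate. Against Mecom cells, RLE factors gave 14 higher and 1 lower (Dntt), 1 lower (Mpo), 8 higher (Pf4), and 13 higher and 5 lower (Car1). Thinned cells gave 1 lower (Dntt), 23 higher (Pf4), and 7 higher and 1 lower (Car1). Without one replicate the counts ran from 2 to 24 (Dntt), 3 to 12 (Pf4) and 3 to 28 higher and 0 to 3 lower (Car1). No filter gave 1 higher for Flt3 over Mecom and 1 lower, Rrm2, for the genotype effect in the Car1 gate. The cause was not tested.

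Single members changed sign near 0: Dtl with DESeq2 (0.0094), RLE (0.0044), no filter (0.0094) and thinning (0.046); Pold3 with thinning (-0.031), matched gates (-0.084) and total UMIs (-0.066); Rfc2 with the same (-0.049, -0.075 and -0.085); Exo1 with matched gates (-0.066) and total UMIs (-0.0018); and with total UMIs Mcm4 (-0.016), Mcm6 (-0.0022), Chaf1b (-0.00091) and Ung (-0.00057). The Mpo gate on thinned counts (12 WT cells in replicate 2), alternatives of the Car1 gate's genotype difference and genotype by gate fits without a replicate were not run.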
